A study of Homo sapiens with 18 samples.

Results

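The FOXO genes encode forkhead transcription factors. The 10 genes described here are the FOXO family members FOXO1, FOXO3 and FOXO4 and 7 genes grouped with them as targets, TXNIP, KLF2, KLF4, KLF6, SESN3, TRIB1 and IRS2. They were chosen by symbol, without a threshold on any value, but with earlier results of these data known. Each matched 1 of the 58381 rows of the count tables. Transcripts were sequenced in TC-32, TC-71 and A673, established cell lines of Ewing sarcoma that carry the EWSR1::FLI1 fusion. In each line 3 libraries came from cells reverse transfected with 20 nM of an siRNA to FLI1 (siFLI1) that targets the fused transcript too, and 3 from cells given 20 nM of a negative control siRNA (siNeg), 18 libraries in all. TC-32 and TC-71 were grown in an RPMI medium and A673 in DMEM, and the 3 tables were counted separately. The tables of TC-32 and A673 are both attributed to RSEM, but these lines differ in medium and depth. TC-32 and TC-71 share the medium and overlap in depth, but their counting tools differ, and for TC-71 and A673 medium, tool and depth all differ. Column names give 48 h for TC-32 and TC-71 and no time for A673, so A673 may also differ in time. In each pair, the line itself and its medium or counting tool cannot be told apart. Thinning all libraries to the smallest, in a single random draw, left 10 of the 10 genes with a differing effect between TC-32 and A673. Thinning evens out total counts only, and the part of separate sequencing and counting was not tested. Nothing says that replicates were separate cultures, so the p-values measure only the spread between these libraries.

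FOXO proteins bind a forkhead motif and switch on genes of stress resistance, cell-cycle arrest and fasting metabolism. Insulin and growth factors act through PI3K and AKT, which phosphorylate FOXO proteins, so that they are held by 14-3-3 proteins and exported from the nucleus. Transcript levels therefore do not measure FOXO activity, which rests largely on phosphorylation and location. FOXO1 has been described as a gene that EWSR1::FLI1 represses in Ewing sarcoma.

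A library held 24102487 to 33669271 counts in TC-32, 19685354 to 37234528 counts in TC-71, and 114564479 to 120993595 counts in A673. The level of FLI1, which counts fused and unfused transcripts together, fell by 1.03 (TC-32), 1.47 (TC-71) and 2.09 (A673) on the log2 scale. Levels are given as CPM, counts scaled to the library total with TMM factors. The sum of 7 Ewing sarcoma markers was 3524 to 3604 CPM with siNeg and 1104 to 1117 CPM with siFLI1 in TC-32. This sum is mostly CAV1 (a mean of 2883 CPM with siNeg in TC-32 and 1885 CPM in A673). For TC-71 it was 1035 to 1069 CPM with siNeg and 564.7 to 587.1 CPM with siFLI1, and for A673 2625 to 2703 CPM and 1282 to 1343 CPM. All 7 markers fell in TC-32 and A673, and in TC-71 5 fell while CAV1 rose by 0.16 in log2 (edgeR adjusted p = 0.00135). CD99, a defining surface marker, was listed at 0 in every library of TC-71, which adds nothing to the sum there, and held at least 3786 and 26319 counts per library in TC-32 and A673. The expected counts of CD99 were not whole numbers in TC-32 (3885.5 to 4374.5 with siNeg), and TC-71 was counted with another tool. CD99 lies in the region shared by the X and Y chromosomes. Rows for Y copies of that region were left out of the levels given here, so its counts may cover only part of the gene. Whether the 0 in TC-71 comes from the cells, from the separate counting or from that Y copy was not tested. The sum of 10 markers of epithelial, blood and vessel cells was 94.3 to 107 CPM with siNeg and 133 to 152 CPM with siFLI1 for TC-32, 158.6 to 159.2 and 408 to 423 CPM for TC-71, and 301 to 325 and 384.5 to 430.5 CPM for A673. KRT18 made up most of this sum with siNeg, at means of 93.95, 134.7 and 288.9 CPM. Of these markers 5 were called higher and 1 lower of 6 tested in TC-32, 2 and 0 of 3 in TC-71, and 4 and 1 of 6 in A673. Over all genes tested, 41.3% were called higher and 40.1% lower in TC-32, 36.8% and 35% in TC-71, and 35.6% and 35.4% in A673. The calls of both marker sets are descriptions to be read beside these shares. KRT8 and KRT18 were higher in all 3 lines and CD68 and CDH5 in TC-32 and A673, where PECAM1 fell by 2.28 and 1.10 in log2 (edgeR adjusted p = 4.01e-07 and 0.00136). The lymphocyte marker CD3E held 0 or 1 count in every library. The part of these markers in the results below was not tested, and fewer cells of a type and less RNA per cell cannot be told apart in bulk RNA.

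TXNIP and IRS2 are shown first as sequence, because the letters searched for FOXO occurred in no other window of these genes. RefSeq promoter windows (GRCh38.p14), cut here to the 250 bases before an annotated start, matched 9 of the 10 genes. They were searched on both strands for the forkhead motif GTAAACA and for CAAAACA, the core of the insulin response element. Capitals mark the matches and, in TXNIP, also a pair of CACGAG letters 5 bases apart, the carbohydrate response element known from this promoter, which was added to the search after the sequence was seen.
TXNIP, minus strand of chr1:145996580-145996829: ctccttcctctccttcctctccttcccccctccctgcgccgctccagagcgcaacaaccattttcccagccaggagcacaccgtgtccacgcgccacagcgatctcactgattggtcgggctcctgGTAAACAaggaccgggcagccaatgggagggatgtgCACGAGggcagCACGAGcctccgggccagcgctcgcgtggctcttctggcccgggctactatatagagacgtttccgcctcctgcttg
IRS2, minus strand of chr13:109786584-109786833: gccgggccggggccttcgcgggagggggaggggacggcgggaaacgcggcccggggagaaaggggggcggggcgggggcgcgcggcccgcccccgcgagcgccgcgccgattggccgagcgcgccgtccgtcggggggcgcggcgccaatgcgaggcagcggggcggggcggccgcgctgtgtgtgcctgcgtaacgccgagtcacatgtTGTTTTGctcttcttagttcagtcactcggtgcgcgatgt
The TXNIP match to GTAAACA began at position -124 from the start, and 2.98% of all 35116 windows held that motif. The IRS2 match, TGTTTTG, is CAAAACA on the other strand and began at position -40, and 4.3% of all windows held it. The spaced CACGAG pair, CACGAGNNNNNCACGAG, occurred in 2 of the 35116 windows. The repeat GGAAGGAA, of the kind that EWSR1::FLI1 is known to bind, occurred in 3.06% of all windows and in none of the 9 genes' windows. The E-box CACGTG, also searched, occurred in 6.34% of all windows and in those of KLF4 (from position -157) and KLF6 (from position -97). A match describes the letters only and does not show binding.

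With FLI1 depleted, FOXO1, FOXO3, KLF2 and KLF6 were higher in all 3 lines, and IRS2, the adaptor that carries the insulin signal to PI3K, was lower in all 3. SESN3, a stress-induced regulator of mTORC1, rose 4.71-fold in TC-32 and 6.31-fold in TC-71, while its groups overlapped in A673. TXNIP, an arrestin-like protein that binds thioredoxin and limits glucose uptake, rose 5.86-fold in TC-32 and fell in TC-71. TRIB1, a pseudokinase scaffold of the COP1 ubiquitin ligase, fell in TC-32 and rose in the other lines.

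In TC-32, edgeR's quasi-likelihood test at an adjusted p under 0.05 called 7 of the 10 genes higher and 2 lower, where it called 41.3% of all 16227 genes tested higher and 40.1% lower. In TC-71, 9 of the 10 passed the low-count filter, and 6 were called higher and 3 lower, against 36.8% and 35% of 17085 genes. In A673, 6 of the 10 were called higher and 2 lower, against 35.6% and 35.4% of 18444 genes. Most genes changed in these cells, so a call alone sets none of the 10 apart. The siNeg and siFLI1 libraries did not overlap for 9, 9 and 8 of the 10 genes in TC-32, TC-71 and A673, against 82.6%, 73.8% and 73.6% of all genes tested. Over the genes tested, the median log2 fold change was 1.59 (TC-32), 1.30 (TC-71) and 0.47 (A673), beside 0.022, 0.018 and -0.0066 over all genes. The genes and the lists below were chosen with earlier results of these data known, so such contrasts are descriptions only.

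Of the 9 genes tested in every line, 4 were higher in all 3, against 18.9% of 14233 genes tested in all 3 lines. The 1 that was lower in all 3, IRS2, stands against 19% of all genes, and the 2 with opposite calls in different lines, TXNIP and TRIB1, against 22.7%. Neither of these last shares exceeded the background.

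**Figure D1:**
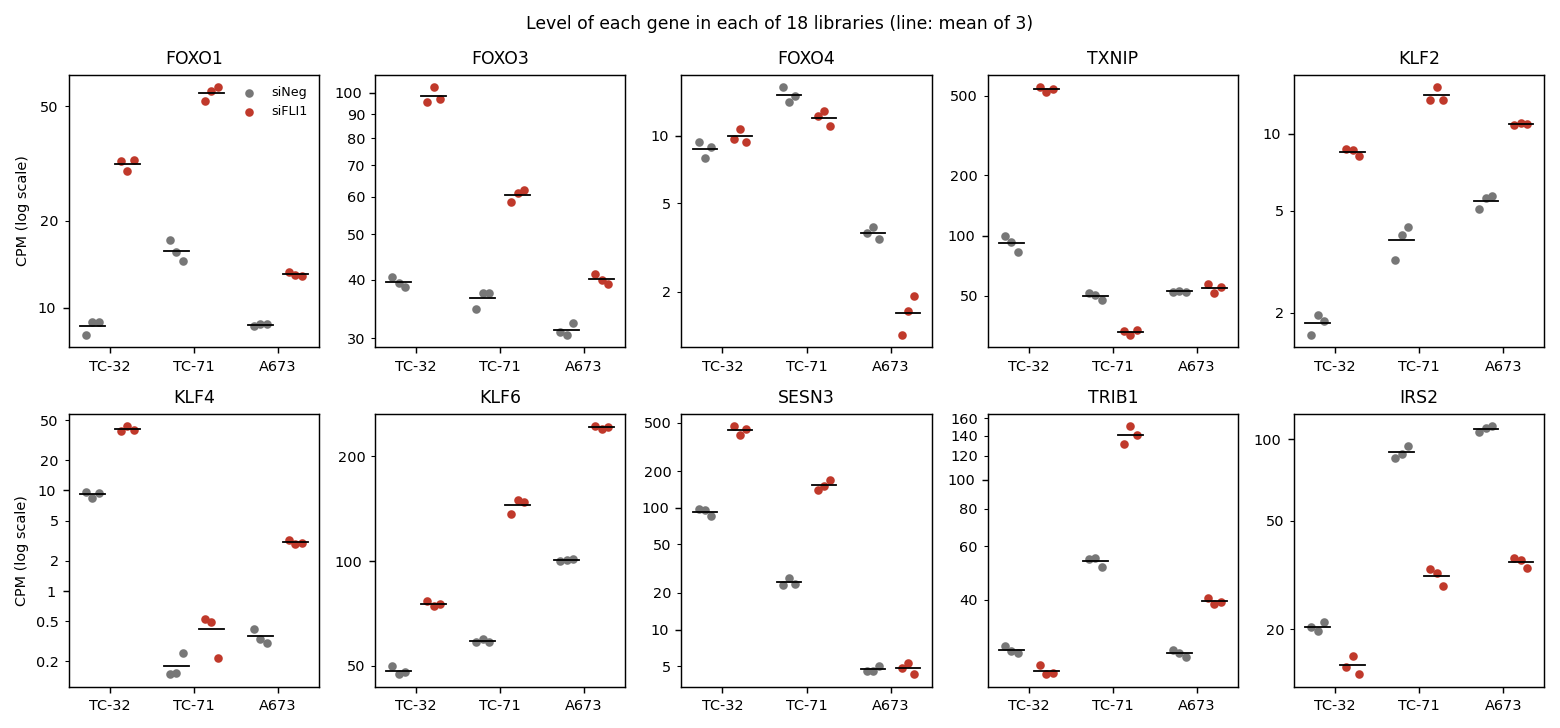
Level of each of the 10 genes in each of the 18 libraries, in CPM on log axes that differ between panels, with grey points for siNeg, red points for siFLI1 and a line at the mean of 3. FOXO1 rises in every line, TXNIP rises in TC-32 and falls in TC-71, the SESN3 groups overlap in A673, and IRS2 falls in every line.

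FOXO1 (ENSG00000150907.7, chromosome 13, 40555667 to 40666641, minus strand, GRCh38) promotes gluconeogenic and cell-cycle inhibitor genes when it is in the nucleus. In TC-32, FOXO1 stood at 8.04, 8.93 and 8.92 CPM with siNeg and at 32.3, 29.8 and 32.5 CPM with siFLI1. In TC-71, its levels were 17.1, 15.6 and 14.5 CPM with siNeg and 52.1, 56.5 and 58.2 CPM with siFLI1. In A673, they were 8.61, 8.77 and 8.79 CPM with siNeg and 13.3, 12.95 and 12.9 CPM with siFLI1. Every siFLI1 library lay above every siNeg library of its line, and the step was smallest in A673. The log2 fold changes were 1.87 (SE 0.0793), 1.82 (SE 0.0705) and 0.58 (SE 0.0541), with edgeR adjusted p of 9.41e-17, 8.96e-20 and 7.1e-08. These values lay at percentile 88.3, 93.5 and 78.8 of the log2 fold changes of all genes tested in the line. In order of level, TC-71 with siFLI1 came first, then TC-32 with siFLI1, TC-71 with siNeg and A673 with siFLI1, and the siNeg libraries of A673 and TC-32 came last and overlapped. This order sets side by side tables that were counted separately and is a description only. FOXO1 shares 22.7% of its exon bases on the same strand with the unnamed gene ENSG00000288542, and its expected counts were whole in 6 of 6 libraries of TC-32 and of A673.

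The effect on FOXO1 differed by 1.31 on the log2 scale between TC-32 and A673 (SE 0.0996, edgeR interaction, adjusted p = 1.12e-13). Between TC-32 and TC-71 it differed by 0.04, with a 95% interval from -0.18 to 0.25 (adjusted p = 0.831). Among 6224 genes called in all 3 lines at a mean of at least 1 log2 CPM, the 5 whose fold changes lay nearest to those of FOXO1 were LRIG3, RASL10B, PNRC1, PCOLCE and ATXN1, at distances of 0.12, 0.14, 0.20, 0.24 and 0.25 over the 3 log2 values. LRIG3, the nearest, had log2 fold changes of 1.86, 1.74 and 0.66 in TC-32, TC-71 and A673.

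FOXO3 (ENSG00000118689.14, chromosome 6, 108559835 to 108684774, plus strand) drives genes of apoptosis, autophagy and oxidative defence. In TC-32, FOXO3 stood at 40.5, 39.2 and 38.6 CPM with siNeg and at 95.7, 102.9 and 96.9 CPM with siFLI1. In TC-71, it stood at 34.5, 37.5 and 37.4 CPM against 58.4, 61.1 and 62.0 CPM. In A673, the levels were 30.9, 30.5 and 32.3 CPM against 41.0, 39.9 and 39.2 CPM. The groups did not overlap in any line, and the siNeg levels of the lines were closer together than those with siFLI1. The log2 fold changes were 1.32 (SE 0.0535), 0.73 (SE 0.0571) and 0.36 (SE 0.0434), with edgeR adjusted p of 3.62e-17, 1.79e-12 and 1.68e-06. All 3 pairs of lines differed in this effect, by 0.99 (TC-32 minus A673), 0.58 (TC-32 minus TC-71) and -0.41 (A673 minus TC-71), with edgeR adjusted p of 9.32e-15, 1.93e-08 and 6.62e-06.

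FOXO3 has a near-identical copy on chromosome 17, FOXO3B, and its expected counts were not whole numbers in 6 of 6 libraries of TC-32 and of A673, so its reads were shared out and its value is uncertain. In TC-71, counted with another tool, both genes held whole counts. How that tool treated reads common to both is not given, so the TC-71 values are uncertain too. FOXO3B took 5.63% to 17.4% of the summed CPM of the pair in the libraries of TC-32, between 7.88% and 13.1% in TC-71 and between 13% and 16.4% in A673. In TC-32 FOXO3B fell by 0.36 in log2 (edgeR adjusted p = 0.00394) and its groups overlapped in the other lines. Summed over both genes, the level went from 47.2 ± 0.734 to 104.5 ± 4.08 CPM (TC-32), 41.3 ± 2.698 to 65.9 ± 1.97 CPM (TC-71) and 37.3 ± 1.15 to 46.7 ± 0.704 CPM (A673) (SD, n = 3). The sum was thus higher with siFLI1 in every library of every line.

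FOXO4 (ENSG00000184481.16, chromosome X, 71095851 to 71103532, plus strand) is regulated by AKT in the same way. In TC-32, FOXO4 stood at 9.42, 7.99 and 8.88 CPM with siNeg and at 9.73, 10.8 and 9.41 CPM with siFLI1. In TC-71, its levels were 16.6, 14.1 and 15.2 CPM against 12.3, 12.9 and 11.1 CPM. In A673, they were 3.68, 3.89 and 3.43 CPM against 1.28, 1.63 and 1.91 CPM. The groups overlapped in TC-32, and siFLI1 lay below siNeg in the other lines. FOXO4 fell by 0.35 in TC-71 (SE 0.0892, edgeR adjusted p = 0.000918) and by 1.19 in A673 (SE 0.123, edgeR adjusted p = 2.43e-07) on the log2 scale. In TC-32 the log2 fold change was 0.19, with a 95% interval from -0.013 to 0.40 (edgeR adjusted p = 0.0782), and scaling to library size alone gave 0.23 with an adjusted p of 0.0335. The effect in TC-32 exceeded that in A673 by 1.41 and that in TC-71 by 0.53, with edgeR adjusted p of 9.47e-10 and 0.00301.

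Levels of different genes are compared per kilobase of exon, adding FOXO6, the fourth member of the family. In TC-32 the 4 FOXO transcripts summed to 9.47 ± 0.229 CPM per kilobase with siNeg and to 24.6 ± 1.03 with siFLI1. In TC-71 the sum went from 14.3 ± 0.283 to 25.5 ± 0.181, and in A673 from 7.03 ± 0.0847 to 8.45 ± 0.0491 (SD, n = 3). FOXO3 held the largest share in TC-32 (54.3%) and A673 (57.9%) with siNeg and kept it with siFLI1 (52.3% and 61.8%). In TC-71 the order changed, from FOXO3 at 33.3% and FOXO1 at 18.4% of the sum with siNeg to FOXO3 at 30.95% and FOXO1 at 36.6% with siFLI1. These shares count FOXO3 without FOXO3B, so the uncertainty of that pair holds for them too. The share of FOXO4 was lower with siFLI1 in every line, at 10.7% after 24.4% in TC-32, 12.5% after 28.2% in TC-71 and 5.02% after 13.8% in A673. In log2 units FOXO6 rose by 2.76 in TC-32 (SE 0.165, edgeR adjusted p = 1.17e-13) and by 0.81 in TC-71 (SE 0.102, edgeR adjusted p = 3.67e-08), with 0.24 in A673 (edgeR adjusted p = 0.0850).

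**Figure D2:**
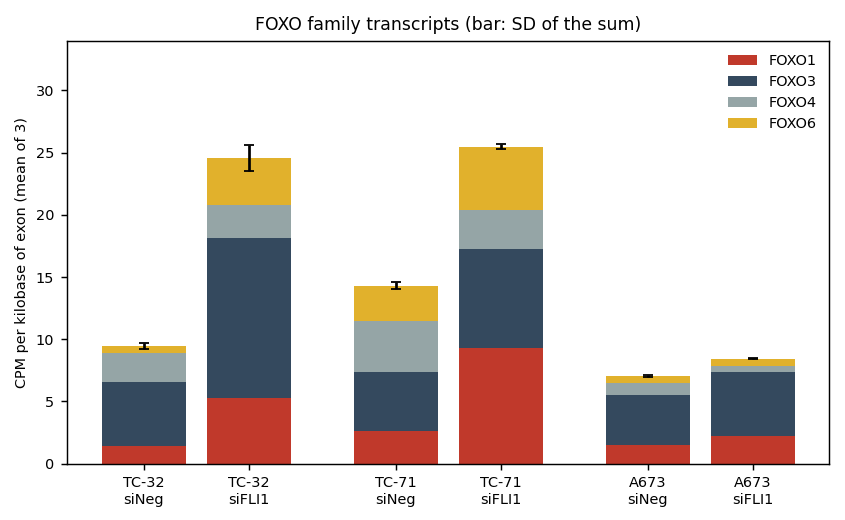
Stacked mean levels of the 4 FOXO transcripts in CPM per kilobase of exon (n = 3 per group), with the SD of the sum as a bar. The sum is 24.6 in TC-32 and 25.5 in TC-71 with siFLI1 and 8.45 in A673, and FOXO1 becomes the largest part in TC-71 alone of the 3 lines.

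TXNIP (ENSG00000265972.5, chromosome 1, 145992435 to 145996579, minus strand), whose promoter is printed above, is transcribed in response to glucose. In TC-32, TXNIP stood at 99.7, 93.2 and 82.6 CPM with siNeg and at 554, 520 and 539.9 CPM with siFLI1. In TC-71, its levels were 51.9, 50.7 and 47.9 CPM with siNeg and 33.4, 31.9 and 33.8 CPM with siFLI1. In A673, they were 52.7, 53.2 and 52.2 CPM with siNeg and 57.6, 51.5 and 55.4 CPM with siFLI1. The TC-32 groups lay far apart, the TC-71 groups were separate in the opposite order, and the A673 groups overlapped. In log2 units TXNIP rose by 2.55 in TC-32 (SE 0.0548, edgeR adjusted p = 2.81e-20), the largest rise among the 10 genes there, and fell by 0.60 in TC-71 (SE 0.0591, edgeR adjusted p = 2.93e-10). In A673 the log2 fold change was 0.06, with a 95% interval from -0.040 to 0.15 (edgeR adjusted p = 0.276), and it was -0.05 with scaling to library size alone. Without siFLI1 replicate 2 of A673 the value was 0.11 and passed the test (edgeR adjusted p = 0.0285). The effect in TC-32 exceeded that in TC-71 by 3.14 and that in A673 by 2.52 (edgeR adjusted p = 1.85e-26 and 2.99e-25), the largest difference of the 10 genes in each of these 2 pairs. Its relative ARRDC4, which shares the arrestin fold and the response to glucose, rose by 3.42 in TC-32 (SE 0.0830, edgeR adjusted p = 1.16e-21), fell by 0.29 in A673 (edgeR adjusted p = 0.0141) and held 0 to 3 counts in the TC-71 libraries.

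SESN3 (ENSG00000149212.11, chromosome 11, 95165513 to 95232541, minus strand) encodes a sestrin, a protein that restrains mTORC1 and supports AKT signalling, and is a textbook FOXO target. In TC-32, SESN3 stood at 97.1, 95.3 and 86.2 CPM with siNeg and at 468, 399 and 444 CPM with siFLI1. In TC-71, it stood at 23.1, 26.4 and 23.7 CPM against 139.6, 151.9 and 170.5 CPM. In A673, the levels were 4.61, 4.54 and 5.04 CPM against 4.80, 5.28 and 4.29 CPM. The groups were far apart in TC-32 and TC-71 and overlapped in A673, where the level was also the lowest. In log2 units SESN3 rose by 2.23 in TC-32 (SE 0.0584, edgeR adjusted p = 2.69e-17) and by 2.67 in TC-71 (SE 0.0687, edgeR adjusted p = 6.13e-21). The A673 value was 0.02, with a 95% interval from -0.17 to 0.20 (edgeR adjusted p = 0.863), its sign turned with scaling and with the libraries used, and counts of 490 to 615 per library lay behind it. The effect in A673 was smaller than in TC-71 by 2.68 and smaller than in TC-32 by 2.24 (edgeR adjusted p = 1.70e-13 and 7.39e-13). Of the other sestrins, SESN2 rose by 0.62 in TC-32 and fell by 0.35 in TC-71 and by 0.17 in A673 (edgeR adjusted p = 6.38e-09, 0.000672 and 0.0238), and SESN1 rose by 0.71 in TC-32 and fell by 0.20 in TC-71 (edgeR adjusted p = 7.21e-06 and 0.0255).

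KLF2, KLF4 and KLF6 are zinc finger factors of the Krüppel-like family, which bind GC-rich sequence. KLF2 (ENSG00000127528.5, chromosome 19, 16324826 to 16328685, plus strand) keeps T cells and endothelium quiescent and is induced by FOXO1 in T cells. In TC-32, KLF2 stood at 1.63, 1.96 and 1.85 CPM with siNeg and at 8.74, 8.64 and 8.16 CPM with siFLI1. In TC-71, its levels were 3.19, 4.01 and 4.30 CPM against 13.6, 15.2 and 13.5 CPM. In A673, they were 5.08, 5.62 and 5.68 CPM against 10.8, 11.05 and 10.9 CPM. All 3 lines showed separate groups, and the line with the lowest siNeg level had the largest fold change. The log2 fold changes were 2.22 (SE 0.138), 1.88 (SE 0.115) and 1.00 (SE 0.0649), with edgeR adjusted p of 1.92e-13, 6.55e-15 and 7.35e-10. The effect in A673 was smaller by 1.25 than in TC-32 and by 0.91 than in TC-71 (edgeR adjusted p = 9.86e-09 and 3.58e-07), and TC-32 and TC-71 differed by 0.34 (edgeR adjusted p = 0.106).

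KLF4 (ENSG00000136826.14, chromosome 9, 107484852 to 107490482, minus strand) is a factor of epithelial barrier and pluripotency programmes. In TC-32, KLF4 stood at 9.59, 8.48 and 9.39 CPM with siNeg and at 39.1, 43.5 and 39.6 CPM with siFLI1. In A673, its levels were 0.424, 0.336 and 0.304 CPM against 3.21, 2.95 and 3.01 CPM. In TC-71, only 4, 3 and 7 reads with siNeg and 13, 13 and 8 with siFLI1 were counted, and the groups overlapped in CPM. KLF4 was separate between groups in the other lines, rising by 2.16 in TC-32 (SE 0.0775, edgeR adjusted p = 3.18e-18) and by 3.10 in A673 (SE 0.137, edgeR adjusted p = 4.90e-12) on the log2 scale. The A673 rise was the largest fold change of the 10 genes in any line, from a low level. KLF4 did not pass the low-count filter in TC-71, where a fit with no filter gave 1.08 (edgeR adjusted p = 0.112) and a fit without siFLI1 replicate 3 gave 1.45 (edgeR adjusted p = 0.0165). An opposite-strand gene, ENSG00000289987, covers 9.75% of its exon bases.

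KLF6 (ENSG00000067082.14, chromosome 10, 3775996 to 3785281, minus strand) is a widely expressed member of the family with growth-restraining roles. In TC-32, KLF6 stood at 49.8, 47.3 and 48.02 CPM with siNeg and at 76.8, 74.3 and 75.4 CPM with siFLI1. In TC-71, it stood at 58.5, 59.8 and 58.6 CPM against 136.9, 149.9 and 147.7 CPM. In A673, the levels were 100.4, 100.6 and 101.5 CPM against 244, 240.2 and 243 CPM. Every line had separate groups, with A673 highest under both siRNAs. The log2 fold changes were 0.64 (SE 0.0522), 1.30 (SE 0.0492) and 1.27 (SE 0.0344), with edgeR adjusted p of 4.10e-11, 5.94e-20 and 9.24e-15. Unlike FOXO1, FOXO3 and KLF2, KLF6 showed the smaller rise in TC-32, by 0.60 against A673 (edgeR adjusted p = 1.17e-10), and A673 and TC-71 differed by -0.06 with a 95% interval from -0.18 to 0.056 (edgeR adjusted p = 0.393).

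TRIB1 (ENSG00000173334.3, chromosome 8, 125430358 to 125438403, plus strand) brings substrates such as C/EBP alpha to COP1 for degradation. In TC-32, TRIB1 stood at 28.0, 27.0 and 26.6 CPM with siNeg and at 24.2, 22.6 and 22.9 CPM with siFLI1. In TC-71, its levels were 54.6, 54.9 and 51.4 CPM against 131.5, 150.3 and 140.8 CPM. In A673, they were 27.2, 26.6 and 25.7 CPM against 40.6, 38.6 and 39.2 CPM. The groups were separate in every line, with siFLI1 below siNeg in TC-32 and above it in the others. TRIB1 fell by 0.23 in TC-32 (SE 0.0665, edgeR adjusted p = 0.00297) and rose by 1.40 in TC-71 (SE 0.0533, edgeR adjusted p = 6.71e-20) and by 0.57 in A673 (SE 0.0439, edgeR adjusted p = 6.25e-09) on the log2 scale. The effect in TC-32 lay 1.63 below that in TC-71 and 0.78 below that in A673 (edgeR adjusted p = 2.23e-18 and 1.36e-10).

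IRS2 (ENSG00000185950.8, chromosome 13, 109752695 to 109786583, minus strand), whose promoter is printed above, links the insulin and IGF1 receptors to PI3K and is induced by FOXO in fasted liver. In TC-32, IRS2 stood at 20.4, 19.8 and 21.2 CPM with siNeg and at 14.6, 16.0 and 13.7 CPM with siFLI1. In TC-71, it stood at 85.5, 88.1 and 94.5 CPM against 33.2, 32.2 and 28.9 CPM. In A673, the levels were 106.4, 110 and 111 CPM against 36.7, 35.9 and 33.7 CPM. Every siFLI1 library lay below every siNeg library of its line, while FOXO1 and FOXO3 lay above. IRS2 fell by 0.47 in TC-32 (SE 0.0790, edgeR adjusted p = 8.36e-06), by 1.51 in TC-71 (SE 0.0597, edgeR adjusted p = 1.50e-19) and by 1.62 in A673 (SE 0.0435, edgeR adjusted p = 7.61e-15) on the log2 scale. The values lay at percentile 30.8, 4.62 and 4.74 of all genes tested in TC-32, TC-71 and A673. The fall in TC-32 was smaller by 1.18 than in A673 and by 1.04 than in TC-71 (edgeR adjusted p = 5.27e-14 and 8.09e-12). IRS1, the paralogue, fell by 0.24 in TC-32 and by 0.61 in TC-71 and rose by 0.51 in A673 (edgeR adjusted p = 7.88e-05, 6.18e-10 and 8.21e-09).

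**Figure D3:**
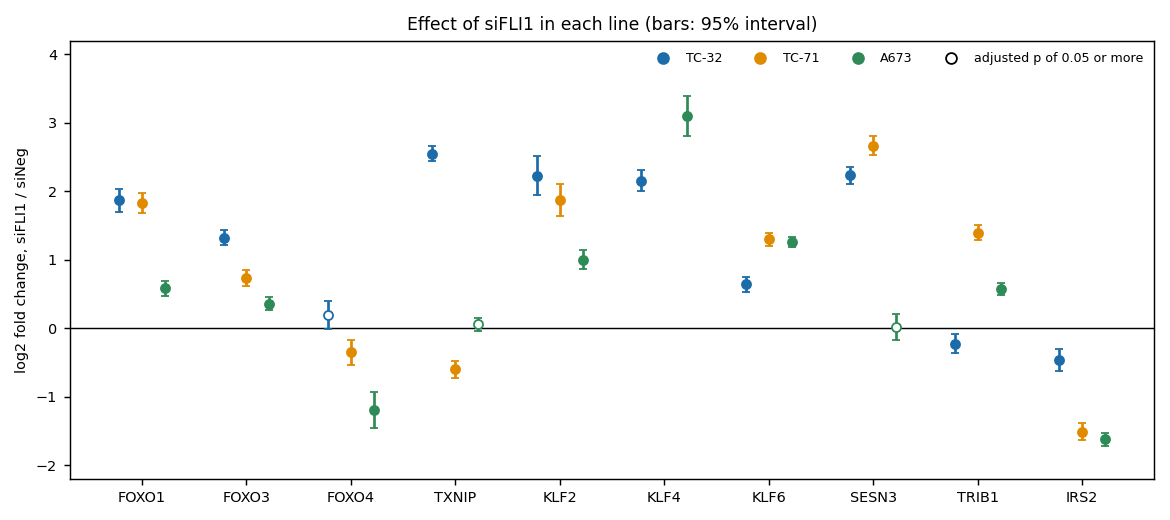
Log2 fold change of siFLI1 over siNeg for each gene in TC-32 (blue), TC-71 (orange) and A673 (green), with 95% intervals from edgeR, and open points where the adjusted p was 0.05 or more. FOXO1, FOXO3, KLF2 and KLF6 lie above 0 in every line and IRS2 below, TXNIP runs from 2.55 in TC-32 to -0.60 in TC-71, and KLF4 has no TC-71 point because it was not tested there.

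The effect of siFLI1 differed between TC-32 and A673 for 10 of the 10 genes (edgeR interaction, adjusted p under 0.05), against 62.1% of 19610 genes. Between TC-32 and TC-71 it differed for 7 of 10, against 53.6%, and between A673 and TC-71 for 8 of 10, against 51.6%. FOXO1, KLF2 and KLF4 did not pass in TC-32 against TC-71, and KLF6 and IRS2 did not pass in A673 against TC-71. A difference between lines was thus common among all genes too.

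Upstream of FOXO, a list of 22 genes of PI3K and AKT signalling held 11 called higher and 7 lower of 22 tested in TC-32, 12 and 5 of 19 in TC-71, and 12 and 5 of 21 in A673. The shares called among all genes were those given above, 41.3% higher and 40.1% lower in TC-32, 36.8% and 35% in TC-71, and 35.6% and 35.4% in A673. Most genes were called, so the counts of this list and the lists below are descriptions to be read beside those shares. Its median log2 fold changes were 0.10, 0.32 and 0.27, beside 0.022, 0.018 and -0.0066 over all genes. IGF1R, the receptor through which IRS2 is engaged, rose by 0.71, 0.68 and 0.33 in TC-32, TC-71 and A673 (edgeR adjusted p = 4.70e-14, 1.17e-14 and 1.63e-06), and PDPK1, the kinase that activates AKT, also rose in all 3 lines. MTOR, the kinase that SESN3 restrains, fell by 0.51, 0.45 and 0.29 (edgeR adjusted p = 1.17e-10, 1.28e-10 and 1.71e-06). The lines parted at SGK1, a kinase that phosphorylates FOXO3, which fell by 1.36 in TC-32 and rose by 2.94 in TC-71 and by 1.01 in A673 (edgeR adjusted p = 7.61e-18, 5.90e-27 and 8.45e-13). PIK3R1, the regulatory subunit of PI3K, rose by 1.84 in TC-32 and by 0.32 in TC-71 and fell by 0.33 in A673 (edgeR adjusted p = 5.34e-21, 5.89e-05 and 4.72e-06). PHLPP1, a phosphatase of AKT, fell by 1.07 in TC-32 and rose by 0.58 in TC-71 (edgeR adjusted p = 4.32e-13 and 1.14e-06), and 8 of the 19 genes tested in all 3 lines had opposite calls, against 22.7% of all genes.

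Among 20 genes whose products act on FOXO proteins directly, 14 fell and 6 rose in TC-32, 12 fell and 5 rose in TC-71, and 8 fell and 6 rose in A673 (all genes: 40.1% and 41.3%, 35% and 36.8%, and 35.4% and 35.6%), with medians of -0.64, -0.26 and 0.01. FOXM1, a forkhead factor of the cell cycle that competes with FOXO3 at shared targets, fell by 3.06, 1.87 and 1.39 in TC-32, TC-71 and A673 (edgeR adjusted p = 1.15e-24, 3.81e-23 and 3.90e-14). CDK2, a kinase that phosphorylates FOXO1, fell by 1.79, 1.53 and 0.56 (edgeR adjusted p = 2.26e-18, 1.31e-20 and 2.32e-09). The exportin XPO1, the 14-3-3 gene YWHAE, the deacetylase SIRT1 and the deubiquitinase USP7 were also lower in all 3 lines, which makes 6 of 20 against 19% of all genes. SKP2, a ubiquitin ligase subunit that targets FOXO1, fell by 0.21 in TC-32 and by 0.97 in TC-71 and rose by 0.95 in A673 (edgeR adjusted p = 0.000433, 1.66e-17 and 8.03e-13).

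Of 25 further genes known as FOXO targets, 21 were tested in TC-32, with 15 higher and 4 lower, and 17 each in TC-71 and A673, with 8 higher and 5 lower and with 9 higher and 3 lower (all genes: 41.3% and 40.1%, 36.8% and 35%, and 35.6% and 35.4%). The medians were 1.17, 0.31 and 0.17. PDK4, TRIM63 and PPARGC1A had 0 or 1 count in the siNeg libraries of TC-32. Set to their value against a floor of 3 counts, they still lay above the TC-32 median. That setting therefore could not move the median from 1.17. Of 16 tested in all 3 lines, 5 were higher in all of them, against 18.9% of all genes: BCL2L11, CDKN1A, FBXO32, PINK1 and C10orf10, the older name of DEPP1. CDKN1A, the cell-cycle inhibitor p21, rose by 3.18, 2.25 and 1.06 (edgeR adjusted p = 4.30e-25, 1.04e-22 and 2.59e-12). FBXO32, the ubiquitin ligase atrogin-1 of muscle atrophy, rose by 3.70, 2.03 and 1.57 (edgeR adjusted p = 2.03e-20, 6.06e-20 and 2.88e-09). C10orf10, which regulates autophagy under FOXO, rose by 3.31, 3.09 and 3.89 (edgeR adjusted p = 7.51e-16, 3.14e-16 and 1.27e-14).

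As TXNIP did, 6 of those 16 targets had opposite calls in different lines, against 22.7% of all genes. SOD2, the mitochondrial superoxide dismutase, rose by 2.58 in TC-32 and by 0.44 in A673 and fell by 0.61 in TC-71 (edgeR adjusted p = 1.62e-18, 2.65e-08 and 7.5e-12). Its expected counts were not all whole numbers in TC-32 and A673, so some of its reads were shared out there. CITED2 fell by 1.74 in TC-32 and by 0.13 in TC-71 and rose by 0.17 in A673 (edgeR adjusted p = 2.28e-19, 0.0119 and 0.000580). PPARGC1A, a coactivator of mitochondrial genes, had 0 counts in the 3 siNeg libraries of TC-32 and 36 to 47 with siFLI1, at least 11.9-fold higher against a floor of 3 counts per library, which covers counting error only. PDK4, a brake on pyruvate oxidation, went from 0 counts to 18 to 29 there, at least 7.01-fold higher against the same floor. Neither passed the low-count filter in TC-71 or A673, where each library held at most 2 counts.

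Among 24 paralogues of the targets, 13 rose and 4 fell of 20 tested in TC-32, 9 rose and 6 fell of 20 in TC-71, and 9 rose and 6 fell of 20 in A673 (all genes: 41.3% and 40.1%, 36.8% and 35%, and 35.6% and 35.4%), with medians of 0.66, 0.05 and 0.04. Of 18 paralogues tested in all 3 lines, 6 were higher in all of them, against 18.9% of all genes: ARRDC3, KLF5, KLF7, KLF9, KLF10 and KLF13. The 2 that were lower in all 3, KLF15 and TRIB3, stand against 19%. Other Krüppel-like genes went otherwise. KLF16 fell by 0.83 in TC-32 and by 0.81 in TC-71 (edgeR adjusted p = 1.04e-10 and 2.47e-13), and KLF3, KLF11 and KLF12 were not called in A673. KLF10, a TGF-beta-induced repressor, rose by 1.29, 1.05 and 1.24 in TC-32, TC-71 and A673 (edgeR adjusted p = 2.63e-16, 7.84e-17 and 8.47e-14). KLF5 rose by 3.02 in A673 (edgeR adjusted p = 8.69e-17), beside 0.77 in TC-32 and 1.11 in TC-71. KLF15, a factor of fasting metabolism, fell by 3.67, 2.32 and 2.94 (edgeR adjusted p = 3.82e-11, 2.95e-08 and 3.52e-15). TRIB3, a relative of TRIB1, fell in all 3 lines by 1.32, 0.96 and 1.43 (edgeR adjusted p = 1.46e-14, 9.09e-13 and 1.77e-13).

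**Figure D4:**
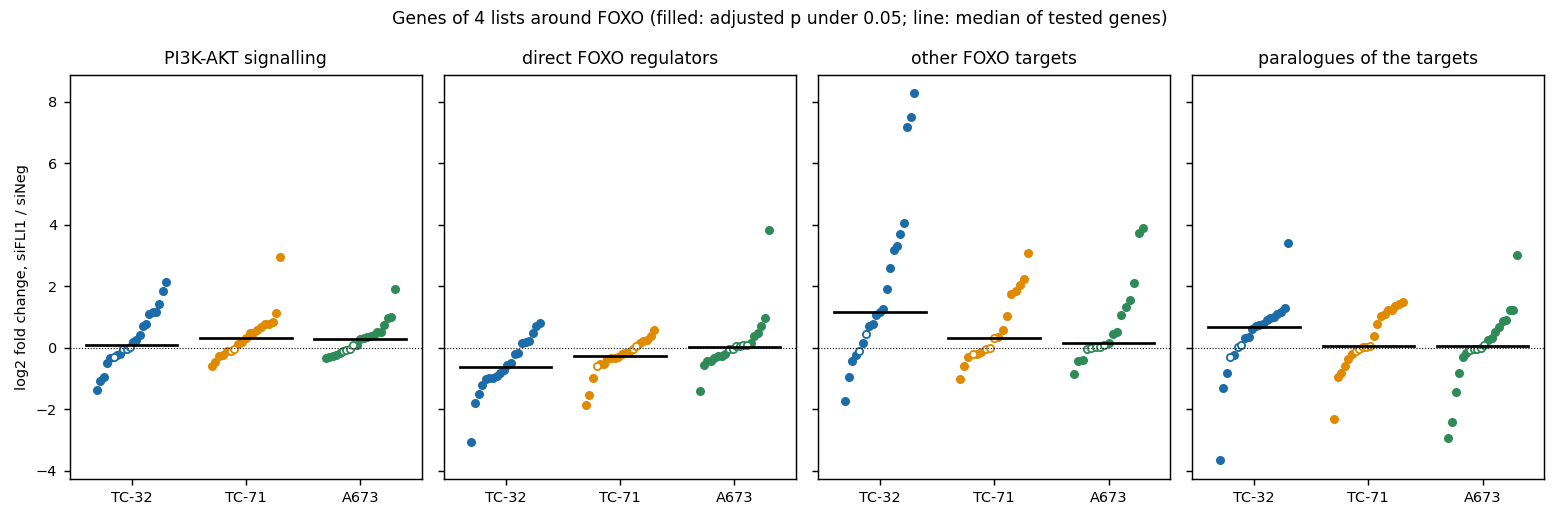
Log2 fold changes of the tested genes of 4 lists around FOXO in TC-32 (blue), TC-71 (orange) and A673 (green), sorted within each line, with a line at the list's median and open points where the adjusted p was 0.05 or more. The median of the other FOXO targets runs from 1.17 (TC-32) through 0.31 (TC-71) to 0.17 (A673), and the 3 highest TC-32 points there are PDK4, TRIM63 and PPARGC1A, whose siNeg libraries held 0 or 1 count, so their fitted size depends on the prior count.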

How the data were processed

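Messenger RNA libraries were made with a stranded kit, per the labels' protocols. The authors deposited expected counts for TC-32 and A673, which the names of the tables attribute to RSEM, and counts for TC-71, attributed to Subread. Neither is scaled to depth. The submitters' processing notes list, without roles, cutadapt 4.4, STAR 2.7.3, featureCounts, Subread 2.0.3, limma 3.38.3 and GRCh38. The annotation release and the strand setting are not given in the sources used here. The column names of TC-32 and TC-71 carry 48 h but no line, which rests on the table name. Those of A673 carry the line but no time. A line and an siRNA that the series also names, ES-5838 and siERG, were not analysed here.

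Expected counts were rounded. A separate fit per line used edgeR 4.0.16 in R 4.3.3 (filterByExpr, TMM factors, robust quasi-likelihood F-test, Benjamini-Hochberg adjustment over all genes tested, called under 0.05). Differences between lines were interaction contrasts in one model of 6 groups over 18 libraries. CPM are TMM-scaled. Log2 fold changes use a prior count of 0.125, and CPM per kilobase use GENCODE release 44 exon unions, read with Python 3.11.15, where 57754 of 58336 identifiers were found. Total counts set the precision. No library repeated another within sampling noise: the smallest chi-square over its degrees of freedom was 2.49 among 18 replicate pairs. Simulated 2-fold changes were recovered for 98.5% of 200 genes in TC-32, 97.5% in TC-71, 97% in A673 and 96.5% in the interaction of TC-32 and A673, each fit running on 15137, 16569, 18048 and 18723 genes, with 3.43%, 4.88%, 3.48% and 1.53% of calls false. The simulation gave every gene the same spread and changed only those 200, equally in both directions, drawn from genes above a minimum count. Most genes changed in the data, so these percentages check the code and do not carry over to the calls.

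The members and lists were chosen with earlier results of these data known. Besides the members, the rule named in each list and line the 2 called genes with the largest rise and the 2 with the largest fall, and genes changed at least 2-fold in the same direction in all 3 lines. IGF1R, PDPK1, BCL2L11, PINK1, SESN1, SESN2, YWHAE, XPO1, SIRT1, USP7, KLF9 and KLF13 were added after their values were seen. So were ARRDC3, KLF3, KLF12 and KLF16. Alternatives were RLE factors, library size alone, other low-count filters, DESeq2 1.42.0, limma-voom (limma 3.58.1), unrounded counts, thinning, a replicate block and leaving out each library. The values of 1 gene of the PI3K and AKT list, which its counts include, are not reported here.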

Additional observations from a re-analysis of the deposited data

Results flagged for a closer look

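The effect of siFLI1 differed between lines in 25 of the 30 tests of the 10 genes over 3 pairs of lines (edgeR interaction, adjusted p under 0.05), where 62.1% (TC-32 minus A673), 53.6% (TC-32 minus TC-71) and 51.6% (A673 minus TC-71) of all genes passed. Differences are given as the log2 fold change of one line minus that of the other. No other kind of result was singled out, since groups of 3 libraries are too small for a test of a single library that stands apart.

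TC-32 minus A673 gave 1.31 for FOXO1, 0.99 for FOXO3 and 1.41 for FOXO4. For the targets it gave 2.52 for TXNIP, 2.24 for SESN3, 1.25 for KLF2, -0.92 for KLF4, -0.60 for KLF6, -0.78 for TRIB1 and 1.18 for IRS2. The positive value for IRS2 is a smaller fall in TC-32 than in A673, not a rise.

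TC-32 minus TC-71 gave 0.58 for FOXO3 and 0.53 for FOXO4. For the targets it gave 3.14 for TXNIP, -0.44 for SESN3, -0.66 for KLF6, -1.63 for TRIB1 and 1.04 for IRS2. TXNIP and TRIB1 were called in opposite directions in these lines.

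A673 minus TC-71 gave -1.28 for FOXO1, -0.41 for FOXO3 and -0.88 for FOXO4. For the targets it gave 0.62 for TXNIP, -2.68 for SESN3, -0.91 for KLF2, 2.01 for KLF4 and -0.86 for TRIB1. The KLF4 difference rests on 3 to 13 counts per TC-71 library. FLI1 itself fell more in A673 than in TC-32 by 1.08 and more than in TC-71 by 0.65 on the log2 scale, and the part of this difference in the others was not tested.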

How the results depend on the processing

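The counts of the 10 genes called, and of those whose effect differed between lines, stayed within 1.5 times of the reported value in 104 of 104 alternatives. With at most 10 genes to count, that limit is wide. Genes called numbered 9 to 10 in TC-32, 9 to 10 in TC-71 and 8 to 9 in A673. Genes with a differing effect numbered 10 for TC-32 against A673, 7 to 8 for TC-32 against TC-71 and 8 to 9 for A673 against TC-71. Of 1027 alternatives for single genes, 1006 kept direction and side of the threshold, 13 newly passed it and 8 turned direction. Those 8 were small values that had not passed. TXNIP in A673 was -0.0463 and SESN3 in A673 was -0.0844 with library size alone. SESN3 in A673 ranged from -0.0521 (without siFLI1 replicate 2) to 0.0962 when single libraries were left out, with -0.0073 without siNeg replicate 2. FOXO1 in TC-32 minus TC-71 was between -0.0427 and 0.0899 when single libraries were left out, turning without TC-32 siNeg replicate 1 (-0.0191), TC-71 siNeg replicate 1 (-0.0427) or TC-71 siFLI1 replicate 1 (-0.0204). KLF6 in A673 minus TC-71 was 0.0096 from the 12 libraries of both lines. The cause was not tested.

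Library size alone moved the A673 median over all genes by -0.10 (log2), to -0.11, and the share of A673 calls that were higher from 50.1% to 40.9%. That setting left 8 A673 genes of the 10 called. With the replicate number as a block, the calls in TC-32, TC-71 and A673 numbered 9, 9 and 8, and FOXO1 was 1.87, 1.82 and 0.58. No call changed under the block. Same-numbered libraries deviated from their group means with correlations from -0.064 to 0.071 over 9 pairs, so the numbers were not taken to pair the samples. KLF4 held 3 to 13 counts per TC-71 library, at which its change was not detectable with all libraries and no low-count filter (1.08, edgeR adjusted p = 0.112). With libraries thinned to the smallest in a single random draw, all 10 genes differed between TC-32 and A673.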

Other observations

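The naming rule also took genes not described above, given here as log2 fold changes from edgeR. In PI3K and AKT signalling, SGK3, a kinase related to AKT, rose by 2.14 in TC-32 (adjusted p = 1.75e-09) and by 0.74 in A673 (adjusted p = 1.89e-07) and fell by 0.22 in TC-71 (adjusted p = 0.0133). The siNeg libraries held 20 to 21.3 expected counts of SGK3 in TC-32 and 645 to 775 counts in TC-71, which was counted with another tool. PIK3CD, a catalytic subunit of PI3K, rose by 1.92 in A673 (adjusted p = 3.69e-12) and by 1.10 in TC-32 (adjusted p = 4.06e-10) and fell by 0.27 in TC-71 (adjusted p = 0.0460). Among the genes acting on FOXO, the 14-3-3 gene SFN rose by 3.82 in A673 (adjusted p = 1.02e-09), where its siNeg libraries held 6 to 15 counts, and by 0.81 in TC-32 (adjusted p = 0.0484), with -0.59 in TC-71 (adjusted p = 0.126). In TC-32 SFN held only 6 to 16 counts per siNeg library and 16 to 33 per siFLI1 library, and the groups overlapped in CPM. YWHAZ rose by 0.59 in TC-71 and by 0.71 in A673 and fell by 0.17 in TC-32 (adjusted p = 2.47e-13, 8.44e-11 and 0.000339). BCL6 rose by 0.69 in TC-32 and by 0.40 in A673 and fell by 0.30 in TC-71 (adjusted p = 7.35e-08, 3.54e-06 and 0.000151). The acetyltransferase CREBBP rose by 0.23 in TC-32 and by 0.37 in TC-71 and fell by 0.45 in A673 (adjusted p = 5.22e-05, 7.18e-08 and 3.73e-08).

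Among the further FOXO targets, BNIP3, a mitophagy receptor, fell by 0.94 in TC-32 and by 1.01 in TC-71 (adjusted p = 1.16e-12 and 1.8e-14), with 0.08 in A673 (adjusted p = 0.136). CDKN1B, the cell-cycle inhibitor p27, fell by 0.85 in A673 (adjusted p = 3.48e-11), where CDKN1A rose, and rose by 0.16 in TC-32 (adjusted p = 0.0128), with 0.01 in TC-71 (adjusted p = 0.938). RBL2 fell by 0.42 in A673 and by 0.44 in TC-32 (adjusted p = 2.19e-07 and 1.20e-08), with -0.03 in TC-71 (adjusted p = 0.606). PCK1, the gluconeogenic enzyme, rose by 3.75 in A673 (adjusted p = 1.45e-05), from 0 to 5 counts per siNeg library to 26 to 43 with siFLI1. Of the Krüppel-like factors, KLF11 rose by 1.48 and KLF7 by 1.44 in TC-71 (adjusted p = 7.06e-12 and 1.04e-17), beside 1.09 and 0.99 in TC-32 and 0.10 and 0.68 in A673. KLF1 fell by 2.402 in A673 (adjusted p = 2.31e-05), from 27 to 29 counts per library to 4 to 6.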
